A study of Homo sapiens with 18 samples.

Results

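EZH1, EZH2, EED, SUZ12, CBX2, CBX8, BMI1, RING1 and RNF2 encode subunits of the Polycomb repressive complexes. These 9 genes were found by name among the 58735 genes counted by RNA sequencing in A549 and H358, 2 established lines of human lung adenocarcinoma, in which RAD21 was lowered or raised. RAD21 closes the ring of cohesin, which tethers sister chromatids and folds chromatin into loops. A549 and H358 cells carried a lentiviral short hairpin RNA against RAD21 (A549 shRAD21 and H358 shRAD21), and cells of each line with a control vector were their reference (A549 shNC and H358 shNC). In a separate batch, A549 cells overexpressing RAD21 (A549 RAD21OE) were set beside A549 cells with an empty vector (A549 EV). There were 3 libraries in each of the 6 groups, or 18. The number of hairpins, the promoter of the overexpression vector, whether the cells were clones and the time after transduction are not stated in the sources used here.

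Polycomb repressive complex 2 (PRC2) places methyl groups on lysine 27 of histone H3, the mark H3K27me3 of silenced developmental genes. Its catalytic subunit is either EZH2, which is abundant in dividing cells, or EZH1, which is the more common one in resting cells, and EED and SUZ12 are needed for its activity. Polycomb repressive complex 1 (PRC1) places ubiquitin on histone H2A through RING1 (RING1A) or RNF2 (RING1B), each paired with a PCGF protein such as BMI1 (PCGF4). In canonical PRC1 a CBX protein, here CBX2 or CBX8, reads H3K27me3 and so links PRC1 to PRC2. In the cell cycle literature EZH2 and EED are known targets of the E2F factors, and CTCF and cohesin are known to shape contacts between Polycomb domains.

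Promoter sequence was at hand for 7 of the 9 genes, in windows from 250 bases before to 50 bases after the start site (RefSeq, GRCh38.p14). CBX2 and CBX8 had no entry, and EZH2 and BMI1 had 2 windows each. Each window was searched on both strands for the E2F letters TTTCCCGC or TTTGGCGC, the CTCF core letters (CC, 3 bases of any kind, AGG, 1 base of any kind, GGC), the NRF1 letters (GCGCA joined to TGCGC) and the NFY letters CCAAT. No searched motif is contained in another. The 3 windows below are shown because they hold the E2F or CTCF letters, in capitals, in genes whose levels are described here. All 3 are written on the strand of the gene.
EZH2: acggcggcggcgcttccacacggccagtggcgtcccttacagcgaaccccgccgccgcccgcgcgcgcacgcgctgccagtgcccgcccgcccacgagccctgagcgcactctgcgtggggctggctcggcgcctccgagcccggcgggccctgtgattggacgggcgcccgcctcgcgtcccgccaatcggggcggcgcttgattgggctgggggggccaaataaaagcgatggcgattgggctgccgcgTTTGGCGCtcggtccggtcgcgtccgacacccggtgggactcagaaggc
SUZ12: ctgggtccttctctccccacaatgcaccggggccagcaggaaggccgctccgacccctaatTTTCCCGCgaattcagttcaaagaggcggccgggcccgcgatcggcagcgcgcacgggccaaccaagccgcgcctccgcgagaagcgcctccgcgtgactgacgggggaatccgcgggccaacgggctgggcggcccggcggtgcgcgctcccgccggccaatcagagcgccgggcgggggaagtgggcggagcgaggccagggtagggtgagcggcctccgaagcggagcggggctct
EZH1: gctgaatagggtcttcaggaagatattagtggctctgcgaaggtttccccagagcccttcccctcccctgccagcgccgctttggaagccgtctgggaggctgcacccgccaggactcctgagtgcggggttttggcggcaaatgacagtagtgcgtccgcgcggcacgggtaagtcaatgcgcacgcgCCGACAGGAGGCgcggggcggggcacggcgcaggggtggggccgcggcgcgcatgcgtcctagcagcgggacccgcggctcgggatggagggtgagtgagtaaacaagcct
The EZH2 window lies at chr7:148884242-148884541 on the minus strand, and its capitals TTTGGCGC begin at base +2, counting the start site as +1. The SUZ12 window lies at chr17:31936757-31937056 on the plus strand, with TTTCCCGC beginning at base -189. E2F letters of either kind were present in 2.27% of the 35114 promoter windows in the same table. The EZH1 window lies at chr17:42744991-42745290 on the minus strand. Its CTCF letters begin at base -61, and such letters were present in 4.64% of all windows. CCAAT or its complement occurred 4 times in the EZH2 window and 1 time each in those of EED and SUZ12, beside 34.6% of all windows with at least 1 match. None of the 7 genes' windows held the NRF1 letters, which 1.24% of all windows held. A match is a run of letters and not a measured site, and no binding was measured here.

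The libraries of the knockdown held 15155077 to 19277568 counts and those of the overexpression 13024640 to 14276335. Levels are given as CPM, counts scaled to a common library size by library total and TMM factor, and levels of different genes are compared only per 1000 bases of exon (RPKM). RAD21 followed the labels. It stood at 256.9, 252.9 and 254.6 CPM in A549 shNC and at 128.9, 131.8 and 101.1 CPM in A549 shRAD21. In H358 it stood at 568.8, 588.8 and 602.8 CPM in shNC and at 378.8, 427 and 432.6 CPM in shRAD21. In RAD21OE it reached 1520, 1501 and 1306 CPM, against 195.3, 208.6 and 194.4 CPM in EV. The groups did not overlap in any of the 3 comparisons, and an exact two-sided permutation test gave p = 0.1 in each, the smallest value that 3 against 3 allows. Of the exon sequence of RAD21, 14.2% overlaps UTP23 or RAD21-AS1 on the other strand, and whether the counting used strand is not stated. In bulk RNA a change in the share of a cell state and a change in the RNA of each cell cannot be told apart. No label says that replicates were separate cultures, so p-values reflect a spread between libraries that may be only technical.

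Epithelial keratins dominated the markers of cell type. The summed level of 9 epithelial and lung markers was 7130 to 14000 CPM over the A549 libraries of the knockdown and 4620 to 4960 CPM in H358. Of 6 fibroblast, 4 endothelial and 6 leukocyte markers, the summed levels stayed at or below 47.9, 18.2 and 9.55 CPM in every library. In A549, 6 of the 7 epithelial markers tested were higher with the knockdown, beside 14.4% of all genes tested, as KRT18 at 4605 ± 290 CPM against 2574 ± 84.1 CPM (SD, n = 3), CDH1 (2.18-fold) and EPCAM (2.92-fold). The collagen gene COL3A1 was lower there, at 0.5996 ± 0.0439 CPM against 2.903 ± 0.745 CPM (SD, n = 3), and so was the leukocyte marker CD14 (log2 fold change -0.57, adjusted p = 0.0437). In H358, CDH1 was higher (1.19-fold) and the endothelial markers PECAM1 and KDR lower, at 1.661 ± 0.538 CPM against 3.841 ± 0.789 CPM and at 7.168 ± 1.32 CPM against 11.66 ± 0.718 CPM (SD, n = 3). In the overexpression KRT18 and KRT8 were higher (1.45-fold and 1.41-fold) and CDH1 lower (log2 fold change -0.36), COL3A1 was higher (1.68-fold), and COL1A1 and CD14 were lower (log2 fold changes -0.44 and -0.68). The lung lineage factor NKX2-1 stood at 121.5 ± 6.64 CPM (SD, n = 3) in H358 shNC and rose 1.27-fold with the knockdown (adjusted p = 0.0102), and in A549, where it is 1 of the 6, it did not exceed 0.734 CPM in any library and passed the filter through H358 alone. The surfactant gene SFTPB did not exceed 0.3175 CPM in either line. The part of these markers in the results below was not tested.

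All 9 genes were expressed in every library and passed the filter on low counts in both tables. Per exon length, SUZ12, EZH2 and RING1 held the top 3 places in all 6 groups. In A549 shNC SUZ12 led with 18.11 ± 0.465 RPKM (SD, n = 3), followed by EZH2 at 11.78 ± 0.69 and RING1 at 11.39 ± 0.52 RPKM, whose ranges overlapped. CBX2 at 8.901 ± 0.265, BMI1 at 7.548 ± 0.649, CBX8 at 5.583 ± 0.279, RNF2 at 5.506 ± 0.0631, EZH1 at 4.608 ± 0.172 and EED at 4.316 ± 0.162 RPKM came after. CBX8 and RNF2 overlapped, as did EZH1 and EED. In H358 shNC RING1 at 16.7 ± 1.4, SUZ12 at 16.02 ± 1.4 and EZH2 at 14.51 ± 0.762 RPKM overlapped at the top. There BMI1 was at place 8 with 4.295 ± 0.642 RPKM, overlapping EED, and EZH1 was last with 3.409 ± 0.0453 RPKM. The places of BMI1 are uncertain. Its RPKM divides by all 4283 exon bases, of which 1000 are shared with a readthrough gene, and would be too low if reads there were not counted. In A549 EV RING1 at 15.07 ± 1.02 and SUZ12 at 14.88 ± 0.346 RPKM overlapped, and EED at 3.894 ± 0.302 RPKM was last, overlapping EZH1.

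**Figure D1:**
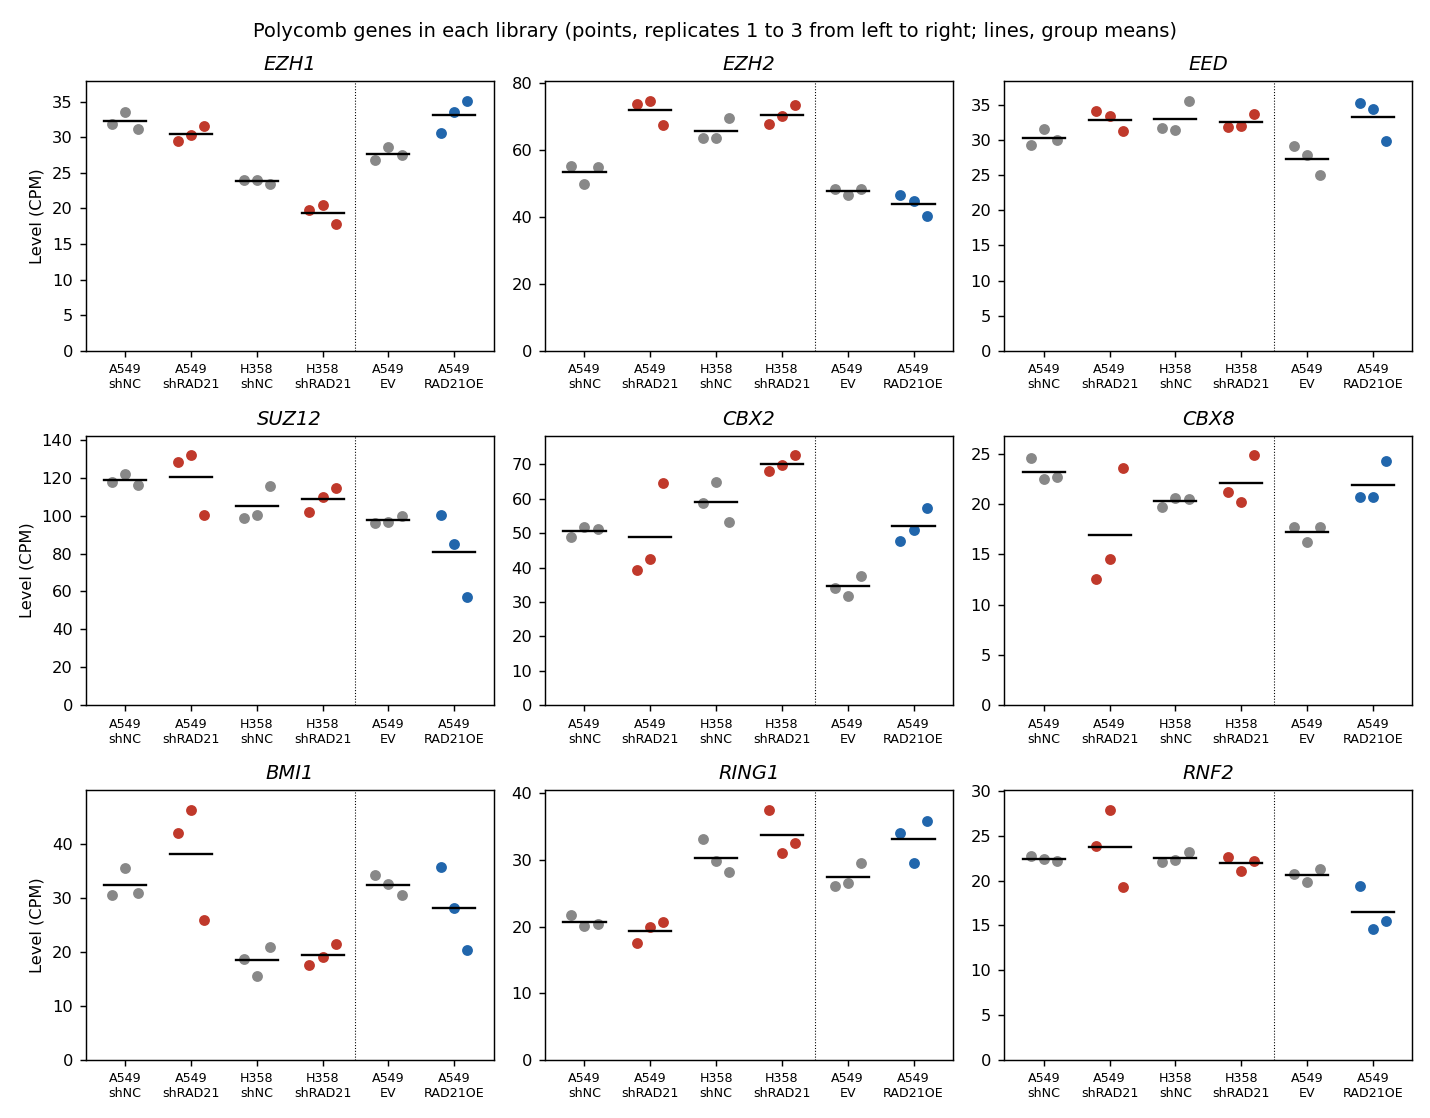
Level of each Polycomb gene in CPM (vertical axis, from 0) in each library (points) of the 6 groups (horizontal axis), with lines at the group means and a dotted line between the separate knockdown and overexpression batches. EZH2 in A549 shRAD21 and CBX2 in A549 RAD21OE lie above all their controls, while the third library of these groups is the lowest for SUZ12 and BMI1.

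In A549 the knockdown of RAD21 left 7 of the 9 genes without a call, raised EZH2 and lowered CBX8. EZH2, the PRC2 methyltransferase, stood at 55.14, 49.65 and 54.98 CPM in shNC and at 73.7, 74.55 and 67.54 CPM in shRAD21. Every knockdown library lay above every control. The rise was 1.35-fold (log2 fold change 0.43, SE 0.08, adjusted p = 0.000321, edgeR's quasi-likelihood test with Benjamini-Hochberg adjustment over 18939 genes). The H3K27me3 reader CBX8 stood at 24.58, 22.48 and 22.67 CPM in shNC and at 12.6, 14.54 and 23.58 CPM in shRAD21. Its first and second knockdown libraries were low, and the third lay within the controls (log2 fold change -0.47, SE 0.16, adjusted p = 0.0438). Of all genes tested in this comparison, 25.2% were called, 14.4% higher and 10.9% lower, so 2 of 9 is near the background. The share of higher calls was 56.9%, and 47.1% when scaled by library totals alone. The ranges of the groups did not overlap for 1 of the 9, EZH2, beside 32.7% of all genes tested.

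EZH2 kept its rise under all 17 alternatives tried, with log2 fold changes of 0.32 to 0.48 and adjusted p of 3.54e-08 to 0.0102. CBX8 lost its call under 7 of them, with adjusted p up to 0.215. These were the offsets for GC content and exon length, the fit on 6 libraries, and leaving out shRAD21 replicate 1 or 2 or any of the 3 shNC libraries. Without shRAD21 replicate 3 its log2 fold change was -0.78 (adjusted p = 9.69e-08).

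Among the other PRC2 genes of A549, EZH1 had a log2 fold change of -0.08 (SE 0.08, adjusted p = 0.523), EED 0.12 (SE 0.08, adjusted p = 0.317) and SUZ12 0.02 (SE 0.09, adjusted p = 0.923). SUZ12, the subunit that anchors PRC2's accessory proteins, stood at 128.5, 131.7 and 100.5 CPM in shRAD21 against 117.7, 122 and 116.1 CPM in shNC. The third knockdown library lay below the controls and the others above. Of the PRC1 genes, RNF2 had a log2 fold change of 0.08 (SE 0.11, adjusted p = 0.649) and RING1 one of -0.10 (SE 0.11, adjusted p = 0.531). The PCGF subunit BMI1 stood at 42.08, 46.29 and 25.97 CPM against 30.5, 35.53 and 30.96 CPM in the controls (log2 fold change 0.24, SE 0.16, adjusted p = 0.299). CBX2, the chromatin-compacting CBX protein, stood at 39.39, 42.54 and 64.61 CPM against 48.92, 51.79 and 51.16 CPM (a log2 fold change of -0.05 with SE 0.13 and adjusted p = 0.824). In both genes the third knockdown library lay on the other side of the controls from its replicates. Without it BMI1 had a log2 fold change of 0.45 (adjusted p = 0.000127) and CBX2 one of -0.30 (adjusted p = 0.000745), and 4 of the 9 genes were called instead of 2. Calls over all genes rose as well in that fit, to 4537 higher and 3893 lower of 19584, and 4 of 9 is near that share. With all libraries the calls were 2721 and 2059 of 18939.

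**Figure D2:**
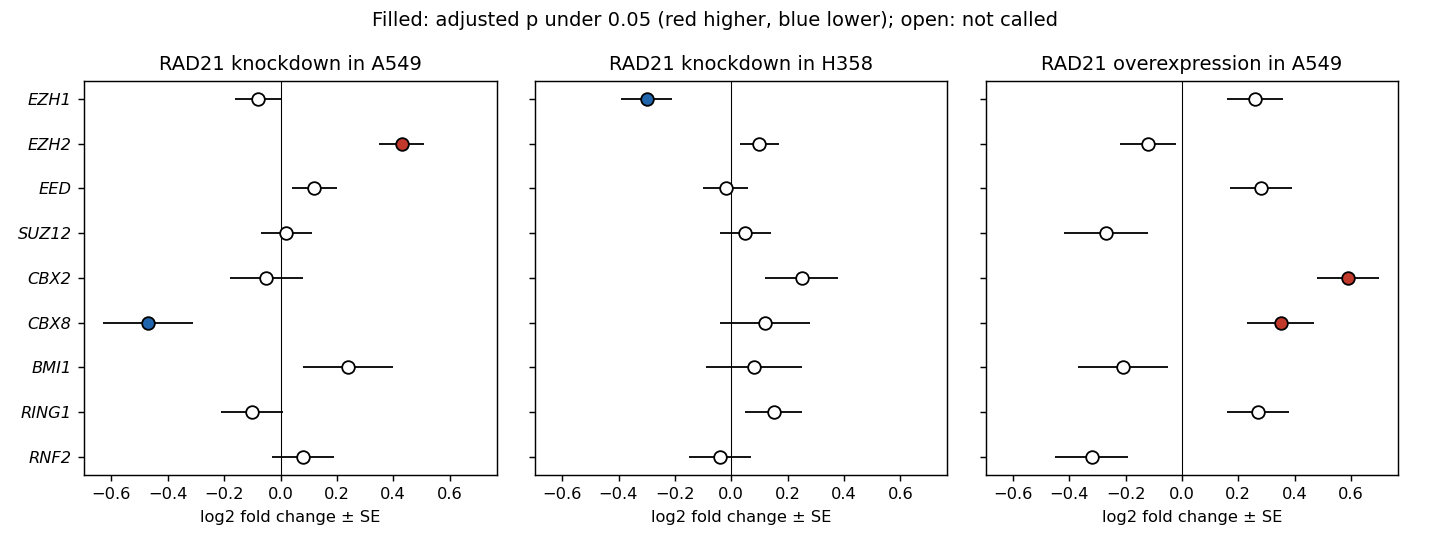
Log2 fold change (horizontal axis) of each gene (vertical axis) in the 3 comparisons, with bars of 1 SE; filled points passed an adjusted p of 0.05. EZH2 and CBX8 are filled in the knockdown of A549, EZH1 in that of H358, and CBX2 and CBX8 in the overexpression.

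The libraries numbered 3 of A549 shRAD21 and RAD21OE stood apart from their replicates over all genes. The median absolute log2 difference was 0.30 to 0.31 and 0.23 to 0.27 for these, and no other pair of replicates exceeded 0.15. Libraries also followed GC content to different degrees. A library's deviation was taken from the mean of all 6 libraries of its line and batch, treated and control together. Opposite signs in treated and control libraries are thus partly built in. Across genes, Spearman's rho between GC content and this deviation was -0.458, -0.435 and 0.356 in A549 shRAD21 and 0.201 to 0.289 in shNC. It was -0.193, 0.0547 and 0.625 in RAD21OE and -0.325 to -0.221 in EV, and it ran from -0.311 to 0.253 over the 6 libraries of H358. Genes are not independent replicates, and these values describe the libraries.

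The 9 genes span a GC content of 32.96% for EED to 61.64% for RING1. In the libraries that stood apart some members lay on opposite sides of their controls and others did not. In A549 shRAD21 replicates 1 and 2, BMI1 (39.12% GC) lay 0.38 and 0.52 above the mean of its controls on the log2 scale, and in replicate 3 it lay at -0.32. CBX2 (59.67% GC) lay at -0.36 and -0.25 in the first pair and at 0.35 in replicate 3. In RAD21OE replicate 3, SUZ12 (38.03% GC) lay at -0.78 and BMI1 at -0.67, while CBX2 lay at 0.73 and CBX8 (57.53% GC) at 0.50. EZH2 (42.71% GC) lay at 0.47, 0.49 and 0.34 in the knockdown libraries of A549. The order by GC content did not hold for every member. EED, with the lowest GC content, lay at 0.05 in shRAD21 replicate 3 and at 0.13 in RAD21OE replicate 3, and RING1, with the highest, lay at 0 and 0.39.

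**Figure D3:**
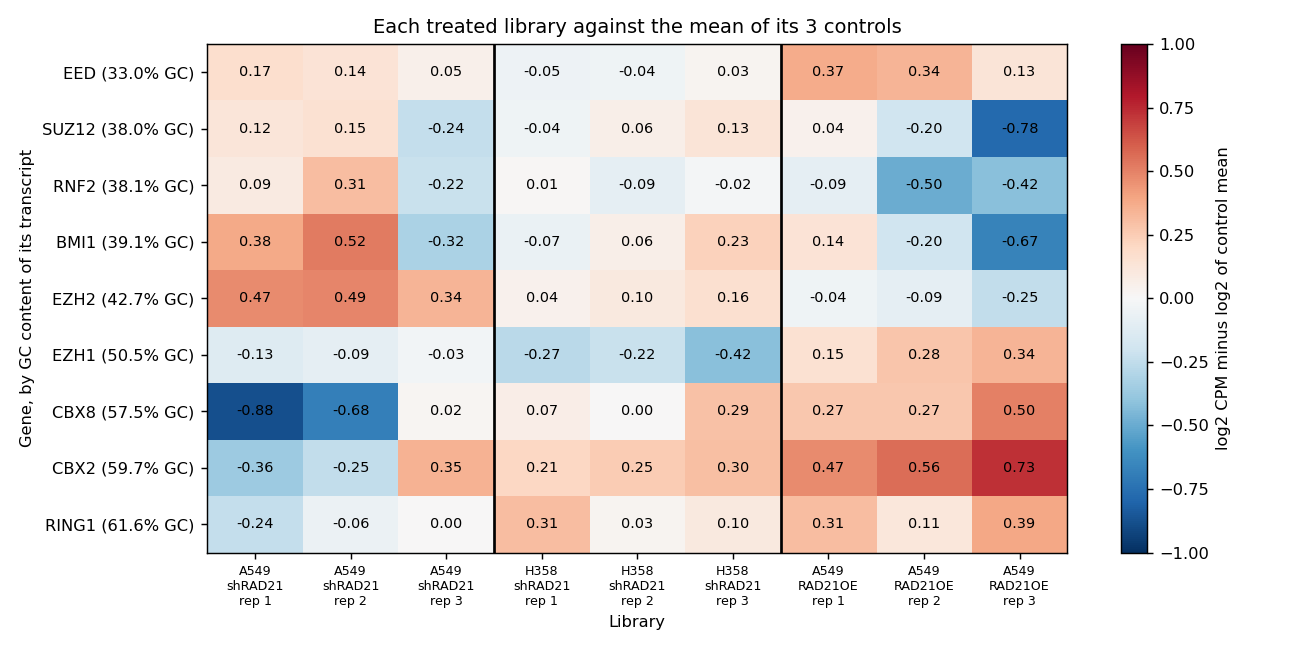
Log2 level of each gene (rows, from lowest GC content at the top) in each treated library (columns) minus the log2 of the mean of its 3 controls, with the values printed and red above, blue below. In replicate 3 of A549 shRAD21 and of RAD21OE, SUZ12, RNF2 and BMI1 are low; CBX2 is high in both.

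In H358 the knockdown changed 1 of the 9 genes by the test, EZH1, the PRC2 methyltransferase of resting cells. It stood at 24.04, 23.97 and 23.46 CPM in shNC and at 19.7, 20.45 and 17.77 CPM in shRAD21. All 3 knockdown libraries lay below all controls, and the fall was 1.23-fold (log2 fold change -0.30, SE 0.09, adjusted p = 0.0373, edgeR). Of all genes tested in H358, 8.40% were called, 3.78% higher and 4.62% lower, with 45% of the calls higher; scaling by library totals alone put that share at 55.6%. EZH1 lost its call under 9 of 17 alternatives, with adjusted p up to 0.191: when any 1 of the 6 H358 libraries was left out, with library totals alone, with no filter on low counts and with a block for the replicate number (adjusted p = 0.0702). Its log2 fold change ran from -0.34 to -0.24 over them.

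CBX2 was the other gene of H358 whose ranges did not overlap, beside 36.1% of all genes tested. It stood at 58.84, 64.81 and 53.14 CPM in shNC and at 68.01, 69.85 and 72.56 CPM in shRAD21 (log2 fold change 0.25, SE 0.13, adjusted p = 0.264). CBX2 was called higher under 1 of 17 alternatives, the edgeR fit on the 6 H358 libraries alone (adjusted p = 0.00281). EZH2 stood at 63.56, 63.66 and 69.6 CPM in shNC and at 67.61, 70.14 and 73.29 CPM in shRAD21, and these ranges overlapped (log2 fold change 0.10, SE 0.07, adjusted p = 0.462). The log2 fold changes of the other 6 genes lay between -0.04 for RNF2 and 0.15 for RING1, with adjusted p of 0.399 to 0.943.

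The response of EZH2 to the knockdown differed between the lines by the test of the difference itself (0.33 on the log2 scale, SE 0.11, adjusted p = 0.038). It was the 1 gene of 9 called, beside 17.6% of all genes tested, 9.94% higher in A549 and 7.61% lower. RAD21 itself was lowered more in A549 (difference -0.57, SE 0.12, adjusted p = 0.00228). The difference in EZH2 lost its call under 16 of 22 alternatives, with values of 0.18 to 0.38 and adjusted p of 0.000349 to 0.137. With the offsets for GC content and exon length SUZ12 was the 1 member called in its place (-0.31, SE 0.07, adjusted p = 0.00171). For CBX8 the difference was -0.59 (SE 0.23, adjusted p = 0.0815) and for EZH1 0.22 (SE 0.12, adjusted p = 0.226).

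With RAD21 overexpressed in A549, CBX2 and CBX8 were higher and none of the 9 genes was called lower. CBX2 stood at 34.17, 31.84 and 37.61 CPM in EV and at 47.68, 50.96 and 57.27 CPM in RAD21OE. The groups were well apart, and the rise was 1.5-fold (log2 fold change 0.59, SE 0.11, adjusted p = 0.00158, edgeR over 15462 genes). CBX8 stood at 17.75, 16.22 and 17.7 CPM in EV and at 20.7, 20.76 and 24.3 CPM in RAD21OE, again with no overlap (1.27-fold, log2 fold change 0.35, SE 0.12, adjusted p = 0.044). Of all genes tested, 27.8% were called, 14.1% higher and 13.7% lower, so 2 of 9 is near the background here as well. CBX2 kept its call under all 16 alternatives, at log2 fold changes of 0.46 to 0.65 and adjusted p of 6.27e-06 to 0.0171. CBX8 lost its call under 10 of 16, with adjusted p up to 0.159, among them leaving out RAD21OE replicate 2 or 3 or any of the 3 EV libraries.

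CBX2 and CBX8 are neighbours on chromosome 17 (hg38). CBX2 runs from 79778132 to 79787983 on the plus strand and CBX8 from 79792132 to 79801683 on the minus strand, so they end towards each other with 4148 bases between them. No exon of CBX2 or CBX8 overlaps that of another annotated gene.

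In 6 of the 9 genes the ranges of RAD21OE and EV did not overlap, beside 45.4% of all genes tested. In addition to both CBX genes these were EZH1, EED and RING1 on the higher side and RNF2 on the lower. EZH1 stood at 26.8, 28.58 and 27.54 CPM in EV and at 30.59, 33.57 and 35.07 CPM in RAD21OE (log2 fold change 0.26, SE 0.10, adjusted p = 0.08). The H3K27me3-binding subunit EED stood at 29.09, 27.9 and 24.97 CPM and at 35.25, 34.47 and 29.91 CPM (a log2 fold change of 0.28 with SE 0.11 and adjusted p = 0.0765). RING1 stood at 26.07, 26.61 and 29.53 CPM and at 33.98, 29.6 and 35.8 CPM (a log2 fold change of 0.27 with SE 0.11 and adjusted p = 0.0845). The gap in RING1 was narrow, with the lowest treated library beside the highest control. The H2A ubiquitin ligase RNF2 stood at 20.69, 19.86 and 21.3 CPM and at 19.43, 14.61 and 15.43 CPM (a log2 fold change of -0.32 with SE 0.13 and adjusted p = 0.082). None of these 4 passed the threshold.

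EZH2 in the overexpression had a log2 fold change of -0.12 (SE 0.10, adjusted p = 0.358), SUZ12 one of -0.27 (SE 0.15, adjusted p = 0.195) and BMI1 one of -0.21 (SE 0.16, adjusted p = 0.365). SUZ12 stood at 100.2, 84.83 and 56.83 CPM in RAD21OE against 95.87, 96.44 and 100 CPM in EV, and BMI1 at 35.75, 28.18 and 20.37 CPM against 34.17, 32.6 and 30.56 CPM. In both the first treated library was not below the controls and the third was far below. Leaving out RAD21OE replicate 1 brought 6 of the 9 genes past the threshold, EZH1, CBX2 and CBX8 higher and SUZ12, BMI1 and RNF2 lower. The share of all genes called in that fit, which keeps replicate 3, was not taken, so this count has no background beside it. Without replicate 3 in its place, the log2 fold change of SUZ12 was -0.07 (adjusted p = 0.442) and that of EED 0.35 (adjusted p = 0.00511).

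Of the exon bases of BMI1, 1000 of 4283 (23.35%) are shared on the same strand with the readthrough gene COMMD3-BMI1. That gene has no exon base of its own and was at 0 counts in all 18 libraries, so the BMI1 values rest on what the counting left to BMI1. For EED 0.94% of the exon sequence is shared with MIR6755, and the other members share none. SUZ12 has an annotated pseudogene copy, SUZ12P1, at 15.3 ± 0.214 CPM in EV and 10.31 ± 1.58 CPM in RAD21OE (SD, n = 3; adjusted p = 0.00916), and how reads matching both were counted is not stated.

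The ratio of EZH2 to EZH1 shows both catalytic subunits of PRC2 on 1 scale within each library, and a factor common to a library cancels in it. A library's trend on GC content does not cancel. Per exon length, EZH2 exceeded EZH1 in all 18 libraries. In A549 the ratio was 2.67, 2.29 and 2.73 in shNC and 3.86, 3.8 and 3.31 in shRAD21. In H358 it was 4.09, 4.1 and 4.58 in shNC and 5.3, 5.3 and 6.37 in shRAD21. In the overexpression it was 2.78, 2.51 and 2.71 in EV and 2.35, 2.06 and 1.77 in RAD21OE. The groups did not overlap in any comparison, with higher ratios in both knockdowns and lower ones in the overexpression. The ratios here and below are a description and were not tested, and no share over other pairs of genes was taken.

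The CBX2 to CBX8 ratio was 1.46, 1.69 and 1.65 in A549 shNC and 2.29, 2.14 and 2.01 in shRAD21, and 1.41, 1.44 and 1.56 in EV and 1.69, 1.8 and 1.73 in RAD21OE. It was thus higher in both treated groups of A549, without overlap, and it overlapped in H358. The RNF2 to RING1 ratio was below 1 in every library. It was 0.354, 0.333 and 0.322 in EV and 0.255, 0.22 and 0.192 in RAD21OE, with no overlap, and in both knockdowns the groups overlapped. RNF2 and RING1 lie far apart in GC content (38.08% and 61.64%), and this ratio is not corrected for it. With the GC and length offsets described below, the overexpression log2 fold change of RNF2 went from -0.32 to -0.10. That of RING1 went from 0.27 to 0.16.

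**Figure D4:**
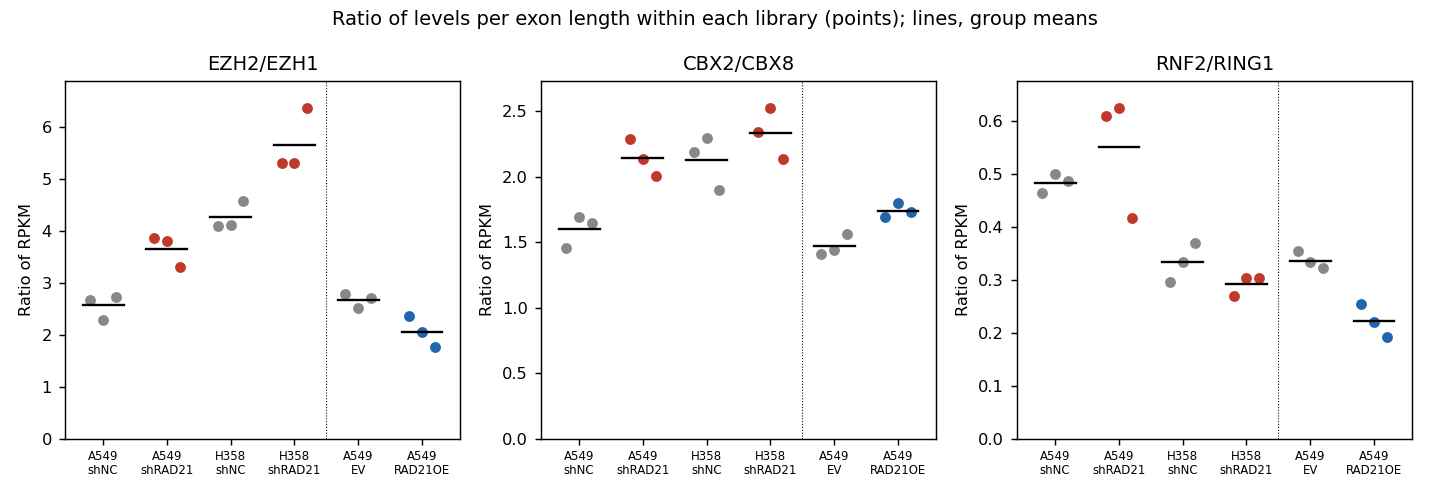
Ratios of RPKM (vertical axes, from 0) of EZH2 to EZH1, CBX2 to CBX8 and RNF2 to RING1 in each library (points) of the 6 groups (horizontal axis), with lines at group means. The EZH2 to EZH1 ratio is above its controls in both knockdowns and below them in RAD21OE.

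Because fold changes followed GC content over all genes (Spearman's rho across genes -0.326 in the knockdown of A549, 0.183 in that of H358 and 0.316 in the overexpression), each library's trend on GC content and exon length was also entered as an offset. With the offsets rho was 0.019, -0.0254 and 0.0115. In the knockdown of A549 EZH2 kept a log2 fold change of 0.32 (SE 0.06, adjusted p = 0.000111), CBX8 went to -0.30 (SE 0.12, adjusted p = 0.0561) and SUZ12 from 0.02 to -0.17 (SE 0.05, adjusted p = 0.0106). In H358 EZH1 stayed at -0.30 (SE 0.08, adjusted p = 0.0077) and SUZ12 reached 0.15 (SE 0.05, adjusted p = 0.0417). In the overexpression CBX2 had 0.46 (SE 0.07, adjusted p = 0.000104), CBX8 0.24 (SE 0.09, adjusted p = 0.0454) and EZH1 0.21 (SE 0.08, adjusted p = 0.0431). EED, the member with the lowest GC content, moved from 0.28 to 0.70 (SE 0.12, adjusted p = 0.000212). RNF2, SUZ12 and BMI1 moved towards 0 there, to -0.10, -0.06 and -0.03. The difference of EZH2 between the lines was 0.18 (SE 0.08, adjusted p = 0.12) with the offsets.

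**Figure D5:**
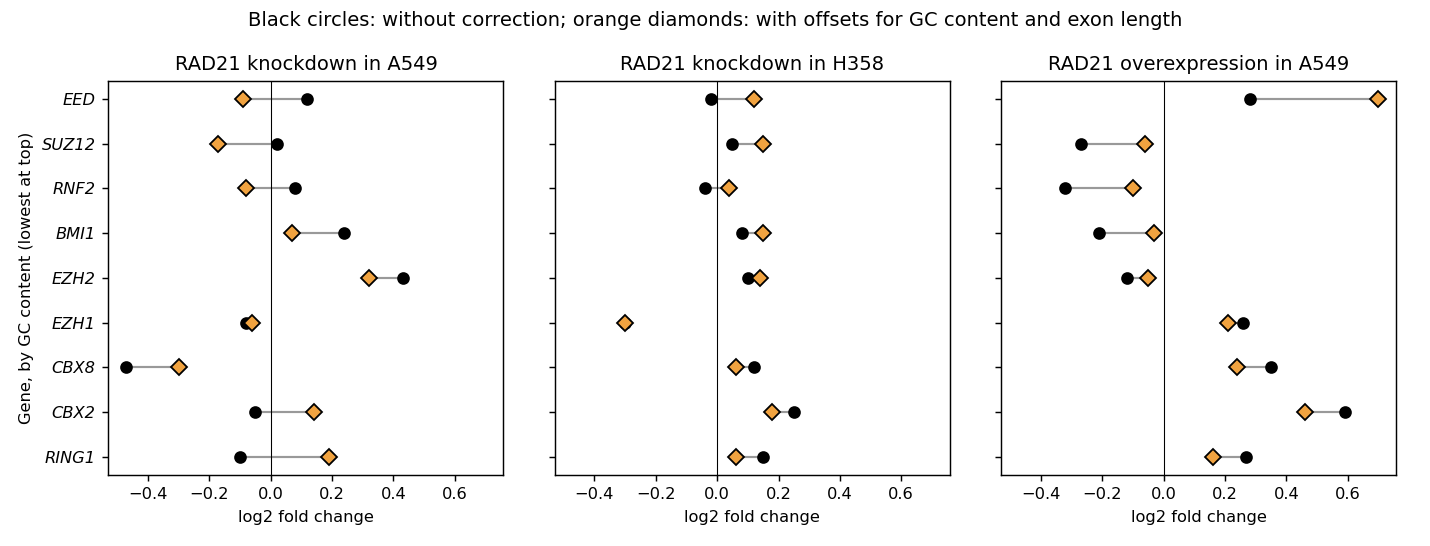
Log2 fold change (horizontal axis) of each gene (vertical axis, lowest GC content at the top) without correction (black circles) and with offsets for GC content and exon length (orange diamonds) in the 3 comparisons. EZH2 in the knockdown of A549 and CBX2 in the overexpression stay above 0.3 with the offsets; EED in the overexpression moves furthest.

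The genes around the 9 members were followed in lists of their complexes. Of 7 PRC2 accessory genes, PHF19 and LCOR were higher and PHF1 lower in the knockdown of A549, with a median log2 fold change of 0.16 beside 0 over all genes tested. The shares to set beside the counts of the lists are 25.2% of all genes called in this comparison, 8.40% in H358 and 27.8% in the overexpression. PHF19 is a Polycomb-like protein that guides PRC2 to its targets, and stood at 98.84 ± 12.9 CPM against 72.95 ± 0.415 CPM (SD, n = 3; log2 fold change 0.44, SE 0.08, adjusted p = 0.000676). Its paralog PHF1 had a log2 fold change of -0.51 (SE 0.14, adjusted p = 0.011). In H358 1 of the 7 was called, EPOP, which limits PRC2 activity at some targets, at 15.88 ± 1.57 CPM against 10.4 ± 0.618 CPM (SD, n = 3), a 1.53-fold rise (adjusted p = 0.00234). None of the 7 was called in the overexpression by edgeR, and 0 had an unadjusted p under 0.05. Of the 6 PRC2 core genes, which add RBBP4 and RBBP7 to the 4 members, RBBP4 was called lower there (log2 fold change -0.26, SE 0.09, adjusted p = 0.0438).

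PRC1 genes moved in both directions in the knockdown of A549. Of 8 catalytic and PCGF genes, PCGF5, of a variant PRC1, rose 1.48-fold (adjusted p = 0.000598), and PCGF2 and PCGF3 fell (log2 fold changes -0.22 and -0.20, adjusted p = 0.0388 and 0.0471). Of 10 CBX, PHC and SCM genes of canonical PRC1, SCML2 and PHC3 were higher (1.33-fold and 1.2-fold) and PHC2, CBX6 and CBX8 lower (log2 fold changes -0.36, -0.38 and -0.47). Of 13 variant PRC1 partners, 4 were higher and 1 lower. The called counts of these lists were thus 3 of 8, 5 of 10 and 5 of 13, beside 25.2% of all genes. AUTS2, a partner of PCGF5 complexes known for gene activation, had the largest rise of these, 2.07-fold, to 26.41 ± 1.9 CPM from 12.74 ± 0.91 CPM (SD, n = 3; log2 fold change 1.05, SE 0.12, adjusted p = 1.94e-05). The H2AK119ub-binding paralogs YAF2 and RYBP rose 1.36-fold and 1.26-fold (adjusted p = 0.00652 and 0.0137), and FBRS fell (log2 fold change -0.40, adjusted p = 0.0146). With the GC and length offsets the PCGF list had 1 higher and 1 lower, the CBX list 3 and 1, and the variant list 4 and 3. In H358 edgeR called 0 genes in each of these lists, with unadjusted p under 0.05 for 1, 3 and 1 genes and medians of 0.09, 0.02 and 0. With the offsets H358 had 1 lower call in the PCGF list and 1 higher in the variant list. The CBX list then had 1 higher and 1 lower. Without A549 shRAD21 replicate 3 in the joint fit, H358 had 3 higher and 2 lower calls in the CBX list. That fit gave 1 lower call in the PCGF list, and 1 higher and 1 lower in the variant list. Over all genes it called 2145 higher and 2269 lower of 19584 in H358. AUTS2 had 0 counts in all 6 H358 libraries and passed the filter through A549 alone.

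In the overexpression the called PRC1 genes were all higher, though most members of each list were not called. PCGF2 was higher among the 8 catalytic and PCGF genes (log2 fold change 0.33, adjusted p = 0.0226), CBX2, CBX6 and CBX8 among the 10 of canonical PRC1, and L3MBTL2, BCOR, FBRS and USP7 among the 13 variant partners, with none lower, beside 14.1% of all genes tested higher and 13.7% lower. L3MBTL2, a PRC1.6 subunit, rose 1.5-fold (adjusted p = 0.00594) and the PRC1.1 subunit BCOR 1.28-fold (adjusted p = 0.0103). The medians were -0.23, 0.18 and 0.18, beside -0.01 over all genes tested. The median of the catalytic and PCGF list was 0.03 with the GC and length offsets and -0.03 without RAD21OE replicate 3, and that of the variant partners was 0.07 with the offsets. The offsets and the fit without that library each gave 1 lower call in the catalytic and PCGF list and 1 in the canonical list, and the offsets 1 among the variant partners. Scaling by library totals added 1 lower call in the catalytic and PCGF list and 1 in the canonical list. Of 9 genes tested of the PR-DUB complex, which removes the ubiquitin that PRC1 places, HCFC1 and FOXK2 were higher with RAD21 overexpressed (1.44-fold and 1.24-fold, adjusted p = 0.000744 and 0.0186). None of the 9 was called in either knockdown by edgeR, with 2 at an unadjusted p under 0.05 in each. This depended on the setting. Without A549 shRAD21 replicate 3, 2 were higher and 4 lower in A549, beside 4537 and 3893 of 19584 genes. In H358 that fit gave 2 higher and 3 lower, beside 2145 and 2269. With the GC and length offsets 2 were higher in A549, beside 3237 of 18939 genes. In H358 the offsets gave 1 higher and 1 lower, beside 1653 and 1612.

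Among 4 enzymes that remove H3K27 methylation or acetylate H3K27, the demethylase KDM6B was lower in the knockdown of A549 (log2 fold change -0.33, SE 0.09, adjusted p = 0.0138). The acetyltransferase CREBBP was higher there (1.16-fold, adjusted p = 0.028) and in the overexpression (1.22-fold, adjusted p = 0.0154). With the GC and length offsets none of the 4 was called lower in the knockdown of A549, and with library totals none was called higher there. None of the 4 was called in H358 by edgeR, with 2 at an unadjusted p under 0.05. With the offsets, and without A549 shRAD21 replicate 3, 1 was higher and 1 lower in H358.

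EZH2 is known to follow cell division, so genes of the cell cycle were read beside it. Of 18 proliferation genes, 9 were higher and 1 lower in the knockdown of A549, beside 14.4% and 10.9% of all genes tested, with a median log2 fold change of 0.15. Without shRAD21 replicate 3, 9 were higher and 6 lower. TOP2A rose 1.44-fold, RRM2 1.43-fold and MCM6 1.34-fold (adjusted p = 3.82e-05, 5.56e-05 and 0.000124), and MCM5 fell (log2 fold change -0.31, adjusted p = 0.0109). In H358 8 were higher and none lower, beside 3.78% and 4.62% of all genes, with a median of 0.22, as MCM6 at 1.42-fold and MCM3 at 1.24-fold (adjusted p = 0.000116 and 0.00411). This count was 6 higher with a replicate block, beside 508 of 18939 genes, and 12 higher with the GC and length offsets, beside 1653. Without A549 shRAD21 replicate 3 in the joint fit, 14 were higher and 1 lower in H358, beside 2145 and 2269 of 19584 genes. In the overexpression 6 were higher and none lower, beside 14.1% and 13.7%, with a median of 0.17, as PLK1 at 1.32-fold and MCM7 at 1.26-fold (adjusted p = 0.00905 and 0.0144). Of 13 E2F, RB and MYC regulators, 5 were higher in the knockdown of A549, among them E2F7 (1.43-fold), RB1 (1.44-fold) and E2F8 (1.36-fold). In H358 4 were higher, among them TFDP1 (1.19-fold), E2F2 (1.36-fold) and E2F8 (1.27-fold). The H358 count of these regulators was 2 higher with the block and 8 higher with the offsets. It was 9 higher and 1 lower without A549 shRAD21 replicate 3. In the overexpression E2F4 and MYC were higher (1.47-fold and 1.24-fold) and TFDP2 and E2F7 lower (log2 fold changes -0.62 and -0.47). The part of proliferation in the EZH2 result was not tested.

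Loci known as Polycomb targets moved in both directions in the knockdowns. Of 25 such genes 23 passed the filter on low counts over the 12 libraries of the knockdown, but within the 6 libraries of A549 only 18 did, and within those of H358 only 13. Of the 18 in A549, 6 were higher, 1 was lower and 11 were not called, beside 14.4% and 10.9% of all genes tested. The cannabinoid receptor gene CNR1 rose 6.41-fold from a low level, 0.6429 ± 0.158 CPM to 4.126 ± 0.691 CPM (SD, n = 3; adjusted p = 1.87e-07). The cell cycle inhibitor gene CDKN1C rose 3.68-fold, also from a low level (0.307 ± 0.204 CPM, adjusted p = 0.00225), and DAB2IP, a signalling regulator described as an EZH2 target in cancer, rose 1.54-fold (adjusted p = 7.81e-05). RUNX3 fell (log2 fold change -0.39, adjusted p = 0.0234). Of the 5 that passed through H358 alone, BMP2 was called higher in A549 from 57 counts over its 6 libraries. The axon guidance gene SLIT2 was called lower on 4, 4 and 6 counts in shNC and 0 in each shRAD21 library, where a floor of 3 counts is 0.163 to 0.185 CPM. Of the 13 in H358, 2 were higher and 5 lower, beside 3.78% and 4.62% of all genes tested. The other 10 passed through A549 alone, and 6 of them, HOXA9, HOXA10, HOXD10, PAX2, LHX2 and SOX17, had 0 counts in every H358 library. KLF2 rose 1.87-fold and DAB2IP 1.41-fold (adjusted p = 0.000702 and 0.00149), while IGFBP3, PAX9 and CDKN2B fell (log2 fold changes -0.88, -0.50 and -0.40). In the overexpression 6 of 16 tested were higher and none lower, beside 14.1% and 13.7% of all genes tested. The median log2 fold change was 0.33, and 0.20 with the GC and length offsets. KLF2 rose 4.19-fold, from 6.193 ± 0.713 CPM to 25.95 ± 3.3 CPM (adjusted p = 1.25e-06), LHX2 1.71-fold and RUNX3 1.48-fold. Both KLF2 and DAB2IP were called higher in the knockdown of A549 and also in the overexpression. RUNX3 was lower in the knockdown of A549 and higher in the overexpression. Without RAD21OE replicate 3, 2 genes of this list were called lower and the median was 0.22. H3K27me3 itself was not measured in these files.

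CDKN2A and CDKN2B, textbook Polycomb targets, had 0 counts in all 12 A549 libraries, so they passed the filter in the knockdown table through H358 alone and no difference could be measured in A549. There a floor of 3 counts is 0.163 to 0.23 CPM. Neither the DNA of this locus nor its H3K27me3 was measured, and the cause of the 0 counts was not tested. In H358 shNC CDKN2A stood at 134.3, 131.1 and 127.6 CPM and with the knockdown at 129.8, 119.7 and 129.7 CPM (a log2 fold change of -0.05 with SE 0.07 and adjusted p = 0.736). CDKN2B stood at 71.33, 68.88 and 66.3 CPM and at 53.53, 55.99 and 47.38 CPM (adjusted p = 0.0149).

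The lines also differed before any change of RAD21. Of the 9 genes, EZH1 and BMI1 were lower and EZH2 and RING1 higher in H358 shNC than in A549 shNC, beside 76.0% of all genes tested, 39.1% higher and 36.8% lower. The ranges did not overlap for 7 of the 9, beside 81.0% of all genes. BMI1 had the largest difference, 18.39 ± 2.75 CPM against 32.33 ± 2.78 CPM (SD, n = 3; log2 difference -0.82, SE 0.17, adjusted p = 0.000216). RING1 stood at 30.36 ± 2.55 CPM against 20.71 ± 0.943 CPM (0.55, SE 0.10, adjusted p = 8.51e-05). EZH1 stood at 23.82 ± 0.317 CPM against 32.2 ± 1.2 CPM (-0.43, SE 0.08, adjusted p = 0.000147) and EZH2 at 65.61 ± 3.46 CPM against 53.26 ± 3.12 CPM (0.30, SE 0.08, adjusted p = 0.00151). These 4 calls kept their direction and threshold under all 17 alternatives. Scaling by library totals moved the median of all genes from 0.05 to 0.27 in this comparison, and EED and CBX2 passed the threshold with it (0.34 and 0.44). RAD21 itself was 2.3-fold higher in H358.

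Levels centred within each line and batch were correlated over the 18 libraries to find genes most like EZH2 and CBX2 among 9130 protein-coding genes with at least 10 CPM. For EZH2 these included ARL6IP1 (Pearson's r = 0.972), FAM111B (0.954) and RASEF (0.953), with a GC content of 37.36% to 42.95%, beside 42.71% for EZH2. For CBX2 they were UPF1 (0.971), EIF4G1 (0.97), CYC1 (0.964) and KLC2 (0.962), with 57.37% to 64.52%, beside 59.67% for CBX2. Among the members the highest r were 0.865 between SUZ12 and BMI1 and 0.764 between CBX2 and CBX8, and the lowest was -0.79 between CBX2 and RNF2. The points share the treatment, the depth and the library's trend on GC content, so these are descriptions with no test.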

How the data were processed

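Per the labels' protocols, libraries came from TRIzol-extracted total RNA and the VAHTS Universal V6 kit. The deposited values are whole, unnormalized read counts for each gene, in 1 table of 12 knockdown and 1 of 6 overexpression libraries. Tools named in the submitters' processing notes, without role or order, are featureCounts 1.5.0-p3, HISAT2 2.0.5 and fastp, with hg38 as build. Strandedness is not stated in the sources used here. Other deposited columns hold gene positions and exon lengths, which equal those of GENCODE release 29 for all 58735 genes. No count column lacked a sample (0). Depth was 13024640 to 19277568 counts a library, and SE of the members' log2 fold changes between 2 groups was 0.07 to 0.17.

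The 2 tables were fitted apart with edgeR 4.0.16 (filterByExpr, TMM, two-sided quasi-likelihood F-test, 1 mean per group) in R 4.3.3. Adjusted p is Benjamini-Hochberg over all genes tested; a gene is called, risen or fallen, under 0.05. SE is the log2 fold change divided by the root of F. Means are ± SD over 3 libraries. Alternatives were DESeq2 1.42.0 size factors and Wald test, library totals, no filter, at least 10 CPM in 3 libraries, limma-voom (limma 3.58.1), the replicate number as a block, the 6 libraries of a comparison, all 18 in 1 fit, lowess offsets (span 0.3) for GC content of the longest transcript and exon length, BMI1 summed with COMMD3-BMI1, and each library left out. The test was tried on simulated data. Figures used Python 3.11.15 and matplotlib 3.10.9.

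Named are RAD21, the 9 members, in each list and comparison up to 3 risen and 3 fallen genes with the smallest adjusted p, the 4 genes most like EZH2 and CBX2, and genes overlapping members. USP7, CDKN2A, NKX2-1 in A549 and SFTPB were added with their values seen. So were KLF2 in the knockdown of A549 and DAB2IP in the overexpression. Of the 4 genes most like EZH2, 1 is not reported here. The members and lists were chosen with earlier results of these data known.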

Additional observations from a re-analysis of the deposited data

Results flagged for a closer look

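EZH2 was singled out because its response to the RAD21 knockdown differed between the 2 lines by a test of the difference itself, 0.33 on the log2 scale (adjusted p = 0.038, edgeR). It was higher in 3 of 3 knockdown libraries than in any control in A549, while the ranges overlapped in H358. The difference lost its call under 16 of 22 alternatives and was 0.18 (adjusted p = 0.12) with offsets for GC content and exon length.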

How the results depend on the processing

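Over single genes and alternatives, 729 values kept their side of the threshold, 42 lost the call and 29 gained one. Changes of sign in genes called in neither fit are among the 729. RING1 in the knockdown of A549, for example, ran from -0.15 to 0.19. In 1 case the sign changed with a call: SUZ12 in the knockdown of A549 at -0.17 with offsets for GC content and exon length. The rise of EZH2 in the knockdown of A549 and of CBX2 in the overexpression, and the 4 calls between the control lines, were not lost under any alternative run. The number of the 9 genes called in the knockdown of A549 (2) was 1 with its 6 libraries alone and 1 to 4 with a library left out. In H358 (1) it was 0 with library totals or no filter, 2 with the GC and length offsets or its 6 libraries alone, and 0 with any of its own 6 libraries left out. In the overexpression (2) it was 1 with library totals, a filter of 10 CPM or DESeq2's Wald test, 4 with the offsets, and 1 to 6 with a library left out. For the difference between the lines (1) it was 0 with library totals or all 18 libraries in 1 fit, and 0 to 4 with a library left out. Between the control lines (4) it was 7 with the 6 libraries alone, 6 with library totals or the offsets, and 4 to 5 with a control library left out. Leaving A549 shRAD21 replicate 3 out of the joint fit of 12 libraries gave 2 in H358 and 7 between the control lines, where that library is in neither group. The joint fit estimates the spread of each gene from all of its libraries, and without that library it rests on fewer samples. Over all genes, calls in H358 went from 716 higher and 875 lower to 2145 and 2269. Those between the control lines went from 7414 and 6978 to 8056 and 7499. The part of that library's distance from its replicates in this was not tested. Library totals put the share of higher calls over all genes at 41.4% in place of 56.6% for the difference between the lines. Over all genes, 4537 were higher and 3893 lower in the knockdown of A549 without shRAD21 replicate 3, against 2721 and 2059, and 1653 and 1612 in H358 with the offsets, against 716 and 875. In the overexpression the offsets gave 3214 higher and 2736 lower, against 2177 and 2120. No such share was taken for the fits on 6 libraries. The same holds for leaving out any library but replicate 3 of A549 shRAD21 or of RAD21OE. Summing BMI1 with its readthrough gene could change no value, since that gene had 0 counts in all 18 libraries. That setting is still among the alternatives counted.

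With a replicate block (the replicate number as a term) the counts were 2 in the knockdown of A549, 0 in H358, 2 in the overexpression, 0 for the difference between the lines and 4 between the control lines. The deviations of same-numbered libraries of the groups compared correlated at -0.0369 to 0.0674, and those of differently numbered ones at -0.0514 to 0.0338. Whether same-numbered libraries shared a culture or a day cannot be told from these values, and no label states it.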
